A study of Mus musculus with 12 samples.

Results

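The genes described here are 32 targets and regulators of the tumour suppressor p53, taken by symbol from the 49585 genes counted in ribosome profiling libraries of mouse CD4 T cells that lack *Rnmt*, the methyltransferase that completes the mRNA cap. *Rnmt* cKO cells carried floxed *Rnmt* alleles (*Rnmt* fl/fl), with loxP sites around exon 3, and CD4-Cre. Control cells were *Rnmt* fl/fl without Cre, and the mice were on a C57B6/J background. The paper calls its mice female where it describes the crosslinking of LARP1 to RNA, a separate experiment. Naive CD4 T cells were isolated from lymph nodes with a magnetic kit and activated for 20 h on plates that had been coated with antibodies against CD3 (5 ug/ml) and CD28 (1 ug/ml), and cycloheximide (0.1 mg/ml, 1 min) was added before lysis to hold ribosomes on mRNA. Total cytoplasmic RNA and ribosome protected fragments (RPFs) were each sequenced from 3 control and 3 *Rnmt* cKO samples. CD4-Cre acts from the double positive stage of thymic development, so *Rnmt* was already deleted in the T cells before activation, and the control did not carry Cre. The labels do not say whether the numbered samples came from separate mice, and the p-values below then measure the spread between these samples.

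p53 is a transcription factor that is kept scarce by the ubiquitin ligase Mdm2 and its relative Mdm4, and that accumulates when DNA damage, ribosomal stress or other signals block this control. It binds response elements near its targets and induces genes that stop the cell cycle, genes that promote death, genes that adjust metabolism and growth signalling, and genes of DNA repair. *Mdm2* and *Ppm1d* are themselves targets, which closes negative feedback loops. In T cells p53 is known for restraining proliferation after antigen receptor stimulation and for deleting thymocytes with damaged DNA.

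The members were grouped by role into 4 regulators (*Trp53*, *Mdm2*, *Mdm4*, *Ppm1d*), 6 arrest genes (*Cdkn1a*, *Ccng1*, *Ccng2*, *Btg2*, *Plk2*, *Gtse1*), 12 death genes (*Bax*, *Bbc3*, *Pmaip1*, *Fas*, *Tnfrsf10b*, *Eda2r*, *Perp*, *Aen*, *Ei24*, *Phlda3*, *Trp53inp1*, *Zmat3*), 5 metabolic and stress genes (*Sesn1*, *Sesn2*, *Tigar*, *Ddit4*, *Gdf15*) and 5 DNA repair genes (*Ddb2*, *Xpc*, *Polk*, *Ercc5*, *Rrm2b*). Values are CPM, read counts scaled to a common library size by TMM within each kind of library, and are relative to the other RNA in the same library, not amounts per cell. The total RNA libraries held 15079703 to 22629563 reads on genes, and the RPF libraries 4123271 to 10661356, where *Rnmt* cKO replicate 3 was the shallowest. Mitochondrial rRNA took 18.7 to 23.6% of these reads in total RNA and 2.3 to 4.51% in RPF. *Rnmt* itself lay between 94.1 and 95.5 CPM in control and between 29.3 and 32.4 CPM in *Rnmt* cKO total RNA, and between 87.9 and 104 CPM against 9.6 to 10.5 CPM in RPF. All 9 T cell markers listed were detected in every library, and 5 of them fell in *Rnmt* cKO total RNA, where 28% of all genes fell. Markers of B cells were higher in 2 of the 3 *Rnmt* cKO samples in both kinds of library.

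Promoter sequence was matched for 24 of the 32 members in windows of 250 bases before to 50 bases after each RefSeq transcript start (GRCm38.p6). The others were *Ddb2*, *Perp*, *Pmaip1*, *Rrm2b*, *Tnfrsf10b*, *Trp53inp1*, *Xpc* and *Zmat3*. The p53 response element consensus consists of 2 decamers, each with a core of 4 bases between 3 purines and 3 pyrimidines, and it reads the same on both strands. The windows were searched on both strands for full sites of 20 bases in which both cores matched and no spacer separated the decamers. A full site with at most 1 mismatch outside the cores was found in 2 of 24 members (8.33%) and in 18 of all 27025 genes with a window (0.0666%). With at most 3 mismatches, 6 of 24 members (25%) and 182 of all genes (0.673%) held one. The members were listed as known p53 targets and regulators, so a higher share of such sites goes with that choice and is no independent result. The same holds for the shares of single decamers below. The full sites are shown in lower case on the strand of the gene, with the cores in capitals, because they are the feature by which p53 recognises its targets.
Cdkn1a: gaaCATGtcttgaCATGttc
Gtse1: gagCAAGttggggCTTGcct
Aen: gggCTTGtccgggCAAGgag
Bbc3: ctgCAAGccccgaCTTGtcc
Tigar: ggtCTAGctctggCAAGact
Trp53: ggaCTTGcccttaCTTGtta

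The *Cdkn1a* and *Gtse1* sites had 1 mismatch each and the other four had 3. The *Cdkn1a* site lies at chr17:29090928-29090947 (plus strand), 51 bases before a RefSeq start. The *Gtse1* site, at chr15:85859945-85859964 (plus strand), begins 1 base before a start. The *Aen* site at chr7:78895937-78895956 (plus strand) lies 121 bases before one annotated start of *Aen* and 10 bases after another. The *Bbc3* site at chr7:16309486-16309505 (plus strand) and the *Trp53* site at chr11:69580284-69580303 (plus strand) lie 97 and 75 bases before a start, and the *Tigar* site at chr6:127109746-127109765 (minus strand) lies 213 bases before one. A match is a description of the letters, and no binding of p53 was measured.

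An exact decamer, which may lie inside a full site, was present in 11 of the 24 members (45.8%) and in 2582 of 27025 genes (9.55%). Members had 1.38 windows per gene and all genes had 1.22, and by window the shares were 36.4% and 8.36%. *Mdm2*, *Bax* and *Ei24* have no full site with 3 or fewer mismatches in these windows. Sequence outside the windows, such as introns further into the gene, was not searched and may hold sites. Decamers of these members are shown with the core in capitals as single examples from the regulator and death groups.
Mdm2: gaaCTTGcct
Bax: aggCAAGctt
Ei24: gggCATGccc

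These lie on the minus strand at chr10:117710935-117710944, chr7:45467090-45467099 and chr9:36797335-36797344. Over all genes tested, 26.3% rose and 28% fell in total RNA of *Rnmt* cKO cells. Of the 11 members with a decamer 8 rose, those shown here among them. The 2 that fell were *Sesn1* and *Trp53*, and *Ccng1* did not pass the threshold. Of the 11 tested members whose windows held no decamer, 6 rose and 2 fell. The remaining 8 members, without a window, had 4 that rose and 2 that fell.

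Most p53 targets were more abundant in activated *Rnmt* cKO cells than in control cells. Of the 30 members that passed the filter on low counts (above 1 CPM in at least 3 of 6 libraries), 18 rose, 6 fell and 6 did not pass the threshold in total RNA. The test was the quasi-likelihood test of edgeR, with p-values adjusted by the Benjamini-Hochberg method and a threshold of 0.05. Over all 11519 genes tested, 26.3% rose and 28% fell. The median log2 fold change of the 30 members was 0.41, and that of all genes was -0.004. In RPF, 16 members rose, 4 fell and 10 did not pass, against 14.1% and 15.7% of 11428 genes, with medians of 0.44 for the members and 0.008 for all genes. The 4 that fell in RPF were 2 without *Rnmt* cKO replicate 2 and 3 without any other single sample. Beside these counts, 5 B cell markers summed to 7.38, 4.71 and 26.1 CPM in control and to 68.6, 89.7 and 15.7 CPM in *Rnmt* cKO total RNA, and their part in the changes of the members was not tested. *Eda2r* and *Gdf15* were too low to be tested, and *Perp* passed the filter with 2 of 3 control libraries above 1 CPM and all 3 *Rnmt* cKO libraries. In these bulk samples, fewer cells of a type that expresses a gene and less of its RNA per cell cannot be told apart.

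The genotypes did not overlap for 25 of the 30 members in total RNA. In 18 of these the lowest *Rnmt* cKO value was above the highest control value, and in 7 it was the reverse, against 30% and 32.3% of all genes tested. In RPF, 18 members were higher without overlap, 6 were lower and 6 overlapped, against 22.2% and 24.3% of all genes. The share of all genes called in both kinds of library was not counted. It can be no larger than the 14.1% that rose and the 15.7% that fell in RPF. The members chosen by name included 16 genes that rose in both kinds of library and 3, *Sesn1*, *Ercc5* and *Ddb2*, that fell in both. Of these falls, that of *Ercc5* in total RNA did not pass with DESeq2 (adjusted p = 0.093) or with edgeR's exact test (adjusted p = 0.06), without TMM scaling (adjusted p = 0.07) or without the filter (adjusted p = 0.093), nor that of *Ddb2* in RPF with DESeq2 (adjusted p = 0.12), the exact test (adjusted p = 0.086) or no TMM scaling (adjusted p = 0.07).

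**Figure D1:**
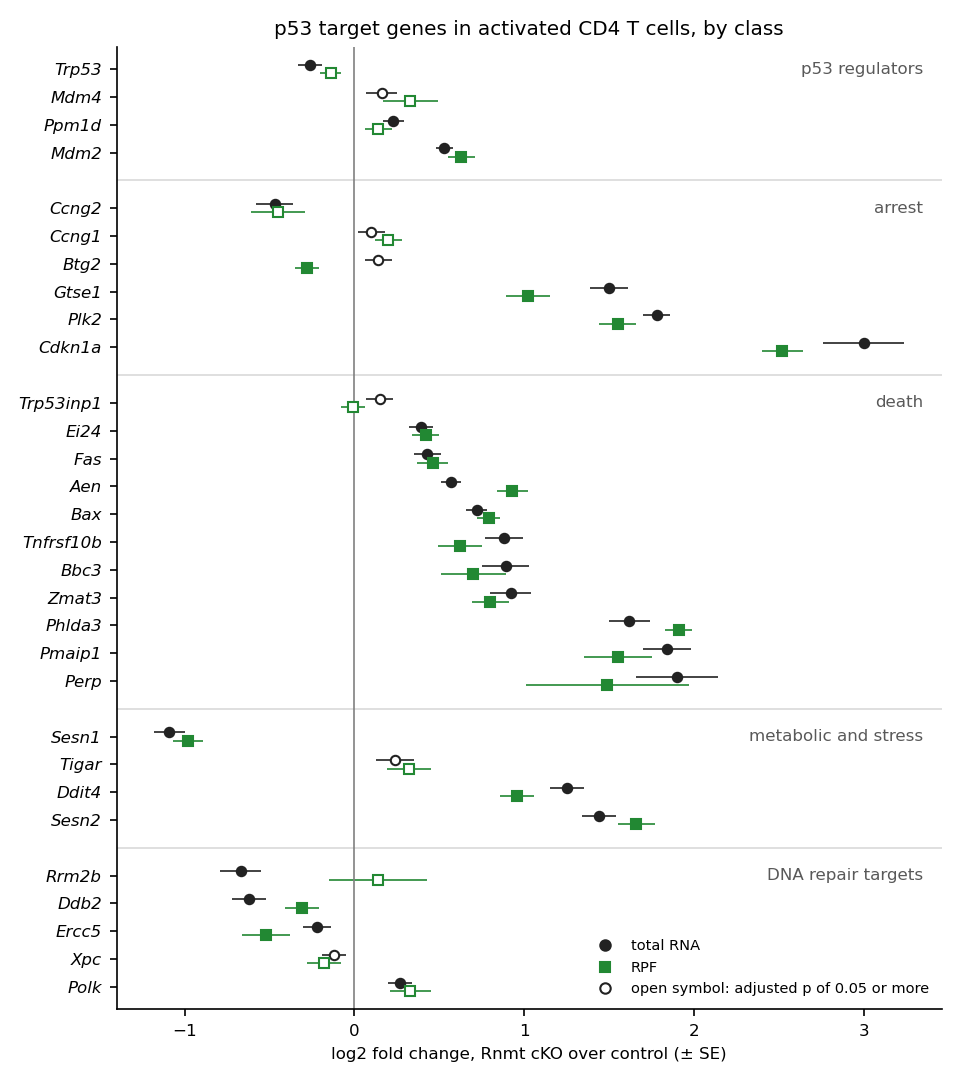
Log2 fold change of *Rnmt* cKO over control (x axis, with the standard error) for the 30 tested members, grouped by role; black circles are total RNA, green squares are RPF, and open symbols did not pass the adjusted p threshold of 0.05. *Cdkn1a* lies furthest to the right at 3.0 and 2.52, *Sesn1* furthest to the left at -1.09 and -0.98, and all death genes but *Trp53inp1* have filled symbols to the right of 0.

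Among the regulators, *Mdm2* rose while *Trp53* was slightly lower. *Trp53* mRNA (chr11:69580359-69591873, plus strand) was at 75.9, 70.8 and 70.8 CPM in control and at 65.2, 60.5 and 56.2 CPM in *Rnmt* cKO total RNA. All 3 *Rnmt* cKO values were below all 3 control values, with a log2 fold change of -0.26 (SE 0.07, adjusted p = 0.016), which no longer passed the threshold when control replicate 1 was left out (-0.23). In RPF, *Trp53* was at 563, 551 and 556 CPM in control and at 472, 519 and 520 CPM in *Rnmt* cKO cells. The groups did not overlap there either, but the log2 fold change of -0.14 (SE 0.06) did not pass (adjusted p = 0.12). Reads that also align to the pseudogenes *Trp53-ps* or *Mdm4-ps* are not among these unique counts.

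*Mdm2*, the ligase that marks p53 for degradation and one of its direct targets, was at 121, 128 and 127 CPM in control and at 174, 185 and 185 CPM in *Rnmt* cKO total RNA. Its RPFs were at 71.3, 79.6 and 80.4 CPM in control and at 113, 127 and 116 CPM in *Rnmt* cKO cells. *Mdm2* was therefore separate between genotypes in both, by a log2 fold change of 0.53 (SE 0.05, adjusted p = 1.4e-04) in total RNA and 0.63 (SE 0.08, adjusted p = 9.5e-04) in RPF. *Ppm1d*, the phosphatase Wip1 that reverses damage signalling to p53, rose by 0.23 (SE 0.06, adjusted p = 0.016) on the log2 scale in total RNA, but not past the threshold without control replicate 1 (0.22) or without the filter on low counts (0.22, adjusted p = 0.078). Its log2 fold change in RPF was 0.14 (SE 0.08, adjusted p = 0.24). *Mdm4*, which binds and blocks p53 without degrading it, had overlapping values and log2 fold changes of 0.16 (SE 0.09, adjusted p = 0.16) and 0.33 (SE 0.16, adjusted p = 0.16). Without control replicate 3 its value in total RNA was 0.24 and passed the threshold.

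Arrest genes were split. *Cdkn1a*, *Plk2* and *Gtse1* rose in both kinds of library, and *Ccng1*, *Ccng2* and *Btg2* did not. *Cdkn1a* (chr17:29090976-29100727, plus strand) encodes p21, the inhibitor of cyclin-dependent kinases through which p53 halts the cell cycle, and it carries the first of the full sites shown above. It was at 5.25, 7.25 and 9.06 CPM in control total RNA and at 65.1, 66.4 and 41.8 CPM in *Rnmt* cKO total RNA. In RPF it was at 31.3, 43.7 and 32 CPM in control and at 200, 203 and 206 CPM in *Rnmt* cKO cells. The lowest *Rnmt* cKO value was well above the highest control value in each kind, and no other member changed by as much. The rise was 8.02-fold in total RNA (log2 3.0, SE 0.24, adjusted p = 4.4e-05) and 5.72-fold in RPF (log2 2.52, SE 0.12, adjusted p = 2.7e-05).

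*Plk2*, a polo-like kinase that p53 induces and that acts in a checkpoint of the cell cycle, was at 12.2, 13 and 11.9 CPM in control and at 41.1, 42.2 and 44.2 CPM in *Rnmt* cKO total RNA. Its RPFs rose from 12.6, 12.7 and 11.5 CPM to 35.7, 34.2 and 38.4 CPM. The replicates of *Plk2* lay close together within each genotype, and the fold changes were 3.44 (log2 1.78, SE 0.08, adjusted p = 6.1e-06) and 2.93 (log2 1.55, SE 0.11, adjusted p = 7.6e-05). *Gtse1*, a microtubule-binding protein of G2 and S phase that exports p53 from the nucleus, was at 26.1, 29.8 and 21.6 CPM in control and at 75.4, 71.9 and 71.4 CPM in *Rnmt* cKO total RNA. It rose 2.82-fold in total RNA (log2 1.5, SE 0.11, adjusted p = 3.4e-05) and 2.02-fold in RPF (log2 1.02, SE 0.13, adjusted p = 0.0011).

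The cyclin G genes did not follow *Cdkn1a*. *Ccng1*, which p53 induces and which recruits a phosphatase to Mdm2, was at 524 to 618 CPM in control and at 570 to 645 CPM in *Rnmt* cKO total RNA. The ranges of *Ccng1* overlapped, with log2 fold changes of 0.10 (SE 0.08, adjusted p = 0.34) in total RNA and 0.20 (SE 0.08, adjusted p = 0.099) in RPF, where it passed the threshold only when *Rnmt* cKO replicate 2 was left out (0.28). *Ccng2*, a related cyclin that is raised in resting cells, fell in total RNA from 58.2, 70.1 and 58.8 CPM to 45.1, 39 and 50.6 CPM (log2 -0.47, SE 0.11, adjusted p = 0.0085). In RPF its log2 fold change was -0.45 (SE 0.16, adjusted p = 0.073). The fall in RPF passed the threshold without *Rnmt* cKO replicate 3 (-0.59) and without the filter on low counts (-0.48, adjusted p = 0.01). *Btg2*, an antiproliferative factor that recruits the Ccr4-Not deadenylase, had overlapping values in total RNA (0.14, SE 0.08, adjusted p = 0.17) and fell in RPF by 0.28 on the log2 scale (SE 0.07, adjusted p = 0.014), though not past the threshold without *Rnmt* cKO replicate 2 (-0.24).

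Nearly all of the death genes rose. Of the 11 tested, 10 rose in both total RNA and RPF and *Trp53inp1* did not pass in either, with medians of 0.88 and 0.79, where 26.3% and 14.1% of all genes rose. One of the 10, *Perp*, passed the filter only with its *Rnmt* cKO libraries counted. Whether the groups of members differ from each other was not tested. *Pmaip1* encodes Noxa, a BH3-only protein that neutralises Mcl1, and it was at 9.23, 12.5 and 12.6 CPM in control and at 36.7, 47 and 39.2 CPM in *Rnmt* cKO total RNA. Its RPFs were at 4.13, 5.13 and 5.52 CPM in control and at 13, 17.2 and 12.5 CPM in *Rnmt* cKO cells. These correspond to 3.59-fold (log2 1.84, SE 0.14, adjusted p = 4.3e-05) and 2.93-fold (log2 1.55, SE 0.20, adjusted p = 0.0012) rises without overlap. *Phlda3*, which competes with Akt for membrane lipids and so represses its signalling, was at 30.6, 38.1 and 28.8 CPM in control and at 89.1, 99.7 and 112 CPM in *Rnmt* cKO total RNA. In RPF it was at 32.4, 37.4 and 38.7 CPM in control and at 133, 138 and 136 CPM in *Rnmt* cKO cells. *Phlda3* rose 3.08-fold (log2 1.62, SE 0.12, adjusted p = 3.9e-05) in total RNA and 3.76-fold (log2 1.91, SE 0.08, adjusted p = 2.0e-05) in RPF.

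*Bax*, the effector that permeabilises the mitochondrial outer membrane, was at 80.6, 80.2 and 78.8 CPM in control and at 129, 124 and 140 CPM in *Rnmt* cKO total RNA. Its RPFs were at 107, 118 and 114 CPM in control and at 179, 203 and 204 CPM in *Rnmt* cKO cells. *Bax* rose 1.64-fold (log2 0.72, SE 0.06, adjusted p = 6.3e-05) and 1.73-fold (log2 0.79, SE 0.07, adjusted p = 2.5e-04), with no overlap between genotypes. Reads within the 192 of its 1576 exonic bases that it shares with *Gm45808* on the same strand cannot be given to either gene. *Bbc3*, which encodes the BH3-only protein Puma, was at 21, 24.9 and 21.1 CPM in control and at 39.3, 34.3 and 50 CPM in *Rnmt* cKO total RNA (log2 0.89, SE 0.14, adjusted p = 0.0013). Its rise in RPF was 0.70 (SE 0.19, adjusted p = 0.025), and this did not pass the threshold in 4 of the 6 fits that left out a sample (range 0.51 to 0.94 over the 6).

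The death receptor genes *Fas* and *Tnfrsf10b* both rose. *Fas* was at 40.6 to 45.8 CPM in control and at 53.9 to 62.3 CPM in *Rnmt* cKO total RNA, with log2 fold changes of 0.43 (SE 0.08, adjusted p = 0.0028) and, in RPF, 0.46 (SE 0.09, adjusted p = 0.0063). *Tnfrsf10b*, the receptor for Trail, rose by 0.88 (SE 0.11, adjusted p = 4.1e-04) and 0.62 (SE 0.13, adjusted p = 0.0097). The third receptor of the list, *Eda2r*, had 5 reads over the 3 control and 17 over the 3 *Rnmt* cKO total RNA libraries and was not tested. Of the remaining death genes, the RNA-binding factor *Zmat3* rose by 0.92 (SE 0.12, adjusted p = 4.9e-04) in total RNA and 0.80 (SE 0.11, adjusted p = 0.0015) in RPF, and *Ei24*, a protein of the endoplasmic reticulum, by 0.39 (SE 0.07, adjusted p = 0.0027) and 0.42 (SE 0.08, adjusted p = 0.0054). *Aen*, an exonuclease that p53 induces during apoptosis, rose by 0.57 (SE 0.06, adjusted p = 2.2e-04) and 0.93 (SE 0.09, adjusted p = 2.3e-04). *Perp*, a membrane protein of desmosomes, rose by 1.90 (SE 0.24, adjusted p = 4.1e-04) in total RNA from low levels of 0.755 to 1.43 CPM in control to 3.53 to 4.58 CPM. Its rise in RPF, 1.49 (SE 0.48, adjusted p = 0.047), rested on 41 control and 105 *Rnmt* cKO reads and did not pass the threshold in 4 of 6 fits that left out a sample (range 1.08 to 2.02) or with counts of both strands (1.48, adjusted p = 0.056). *Trp53inp1*, which promotes p53 phosphorylation and autophagy, was at 846 to 917 CPM in control and at 905 to 1090 CPM in *Rnmt* cKO total RNA, so that the groups overlapped (0.15, SE 0.08, adjusted p = 0.17). Its log2 fold change in RPF was -0.01 (SE 0.07, adjusted p = 0.91).

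**Figure D2:**
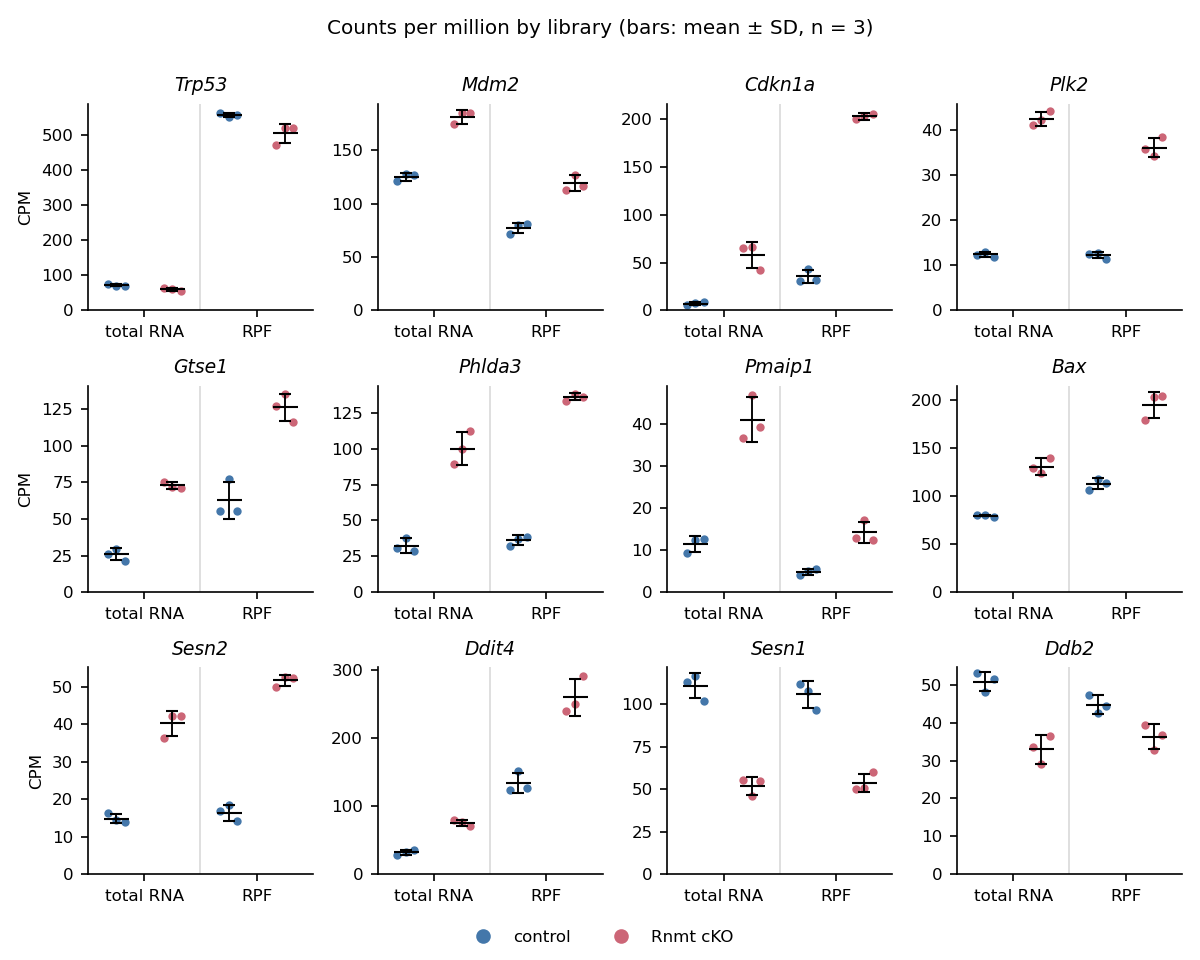
TMM-scaled CPM (y axis, linear, from 0) of 12 members in each total RNA and RPF library; points are libraries, blue for control and red for *Rnmt* cKO, and bars give the mean and SD (n = 3). *Cdkn1a*, *Plk2*, *Gtse1*, *Phlda3*, *Pmaip1*, *Bax*, *Sesn2*, *Ddit4* and *Mdm2* are higher in every *Rnmt* cKO library of each kind, and *Trp53*, *Sesn1* and *Ddb2* are lower.

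Of the 5 metabolic and stress genes, *Sesn2* and *Ddit4* rose, *Sesn1* fell, *Tigar* did not pass and *Gdf15* was not tested. *Sesn2*, a leucine-binding inhibitor of mTORC1, was at 16.2, 14.5 and 13.8 CPM in control and at 36.3, 42.2 and 42.1 CPM in *Rnmt* cKO total RNA. Its RPFs were at 16.7, 18.4 and 14.1 CPM in control and at 50, 52.7 and 52.4 CPM in *Rnmt* cKO cells. *Sesn2* thus rose 2.71-fold (log2 1.44, SE 0.10, adjusted p = 2.5e-05) and 3.16-fold (log2 1.66, SE 0.11, adjusted p = 7.6e-05). *Ddit4*, which encodes Redd1, another inhibitor of mTORC1, was at 27.6, 31.7 and 35.8 CPM in control and at 79.2, 76.2 and 70.5 CPM in *Rnmt* cKO total RNA. It rose 2.37-fold (log2 1.25, SE 0.10, adjusted p = 4.8e-05) in total RNA and 1.94-fold (log2 0.96, SE 0.10, adjusted p = 4.5e-04) in RPF. Both genes are also known targets of the stress factor Atf4.

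*Sesn1*, a sestrin first described as a p53 target, fell instead. It was at 113, 117 and 102 CPM in control and at 55.5, 46 and 54.6 CPM in *Rnmt* cKO total RNA, and its RPFs were at 112, 108 and 96.8 CPM in control and at 50.4, 50.8 and 60 CPM in *Rnmt* cKO cells. *Sesn1* was 2.13-fold lower in total RNA (log2 -1.09, SE 0.09, adjusted p = 5.0e-05) and 1.98-fold lower in RPF (log2 -0.98, SE 0.09, adjusted p = 2.7e-04). *Sesn1* is also induced by FoxO factors in resting cells. *Tigar*, a fructose bisphosphatase that lowers glycolytic flux, had log2 fold changes of 0.24 (SE 0.11, adjusted p = 0.092) and 0.32 (SE 0.13, adjusted p = 0.09) with overlapping groups, and passed the threshold in both only without *Rnmt* cKO replicate 3 (0.33 and 0.41). *Gdf15*, a secreted stress cytokine, had 2 reads over the 3 *Rnmt* cKO libraries of each kind and none in control libraries, and no fold is given.

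Of the 5 genes of DNA repair, 3 fell and 1 rose in total RNA, where 28% and 26.3% of all genes did, and 1 of the falls, that of *Ercc5*, was close to the threshold. *Ddb2*, which recognises ultraviolet lesions, was at 53.1, 48.1 and 51.5 CPM in control and at 33.5, 29 and 36.6 CPM in *Rnmt* cKO total RNA. In RPF it was at 47.4, 42.7 and 44.3 CPM in control and at 39.3, 32.8 and 36.7 CPM in *Rnmt* cKO cells. The fall of *Ddb2* was 1.54-fold in total RNA (log2 -0.62, SE 0.10, adjusted p = 9.7e-04) and 1.24-fold in RPF (log2 -0.31, SE 0.10, adjusted p = 0.044), and the latter passed the threshold in only 1 of 6 fits that left out a sample (range -0.37 to -0.23). *Rrm2b*, the p53-inducible ribonucleotide reductase subunit, fell in total RNA from 9.6, 10.9 and 10.7 CPM to 6.92, 7.07 and 5.7 CPM (log2 -0.67, SE 0.12, adjusted p = 0.0026). Its RPFs, at 2.86 to 5.76 CPM in control and 4.49 to 5.5 CPM in *Rnmt* cKO cells, overlapped (0.14, SE 0.29, adjusted p = 0.74). *Ercc5*, the endonuclease Xpg, fell by 0.22 on the log2 scale (SE 0.08, adjusted p = 0.043) in total RNA and by 0.52 (SE 0.14, adjusted p = 0.023) in RPF. The call in total RNA held in only 1 of the 6 fits that left out a sample (range -0.26 to -0.18), and the call in RPF in 4 (range -0.60 to -0.37). *Polk*, a translesion polymerase, rose by 0.27 (SE 0.07, adjusted p = 0.011) in total RNA and was at 0.33 (SE 0.12, adjusted p = 0.069) in RPF, where it passed without control replicate 1 (0.44). *Xpc*, the damage sensor that works with *Ddb2*, did not pass in total RNA (-0.12, SE 0.07, adjusted p = 0.17) or in RPF (-0.18, SE 0.10, adjusted p = 0.22), although its genotypes did not overlap in either.

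Across the groups, 2 of 4 regulators, 3 of 6 arrest genes, 10 of 11 death genes, 2 of 4 metabolic genes and 1 of 5 repair genes rose in total RNA, and 1, 1, 0, 1 and 3 fell, against 26.3% and 28% of all genes. In groups of 4 to 6 members, 1 call lies near those shares. Their median log2 fold changes were 0.19, 0.82, 0.88, 0.74 and -0.22, and in RPF 0.23, 0.61, 0.79, 0.64 and -0.18. Without the filter, which adds *Gdf15* to the metabolic genes, their medians were 1.24 and 0.92, and with *Rnmt* cKO replicate 3 alone the RPF median of the repair genes was -0.29. Of the 24 calls in total RNA, 21 held in every one of the 6 fits that left out a sample, as did 15 of the 20 calls in RPF.

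Levels per length also set the members apart from each other. In control total RNA, *Ccng1* was the most abundant member at 160 CPM per kb of exon (RPKM), followed by *Trp53inp1* at 136, *Btg2* at 53.4 and *Bax* at 50.7. Of these, *Ccng1*, *Trp53inp1* and *Btg2* did not pass the threshold in total RNA, and *Bax* rose. *Cdkn1a* was at 2.02 and *Plk2* at 2.75 RPKM in control and at 16.3 and 9.47 RPKM in *Rnmt* cKO total RNA. Per kb of coding sequence, the order of RPF levels was different. *Trp53* was the highest of all members at 456 RPF CPM per kb in control cells, although it was only 11th in total RNA at 17.9 RPKM, and *Trp53inp1* followed at 391. *Cdkn1a* was at 74.8 in control and at 426 in *Rnmt* cKO cells.

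Translation efficiency (TE) was compared as the genotype effect on RPF relative to that on total RNA. It is relative within each kind of library, so a change shared by all genes is not seen. Only *Aen* was raised and only *Btg2* was lowered among the 30, against 3.24% raised and 6.57% lowered of 10668 genes, and the median of the members was 0.02 (all genes 0.035). The ratio of RPF CPM to total RNA CPM of *Aen* was 0.784, 0.952 and 0.947 in the control samples and 1.15, 1.16 and 1.13 in the *Rnmt* cKO samples. That of *Btg2* was 0.69, 0.697 and 0.757 in control and 0.583, 0.545 and 0.474 in *Rnmt* cKO samples. Neither gene overlapped between genotypes, and the interaction gave log2 fold changes of 0.36 (SE 0.11, adjusted p = 0.049) for *Aen* and -0.43 (SE 0.11, adjusted p = 0.026) for *Btg2*. Both calls were close to the threshold. *Aen* did not pass in any of the 6 fits that left out a sample (range 0.26 to 0.41), and *Btg2* passed in 3 of 6 (range -0.50 to -0.34). With the total RNA and RPF library of the same number joined as a block, which assumes that the numbers pair them, *Gtse1* was called as well (-0.48).

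The other members did not pass the interaction test. *Gtse1* had ratios of 2.11, 2.58 and 2.57 in control and of 1.68, 1.87 and 1.63 in *Rnmt* cKO samples, which did not overlap, with a TE log2 fold change of -0.48 (SE 0.18, adjusted p = 0.12). The ratio of *Cdkn1a* was 5.95, 6.03 and 3.53 in control and 3.07, 3.05 and 4.94 in *Rnmt* cKO samples, which overlap (-0.48, SE 0.28, adjusted p = 0.32). *Trp53* was at a ratio of 7.68 ± 0.231 (SD, n = 3) in control and 8.36 ± 1.03 in *Rnmt* cKO samples (0.12, SE 0.10, adjusted p = 0.5). *Rrm2b* had the highest TE value of the members at 0.80 (SE 0.28), with adjusted p = 0.098.

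The rest of the pathway was examined with lists of other targets, upstream factors and cell cycle genes. Of 22 other p53 targets, 19 were tested in total RNA, of which 10 rose and 4 fell with a median of 0.39 (52.6% and 21.1%, against 26.3% and 28% of all genes), and in RPF 8 rose and 4 fell (42.1% and 21.1%, against 14.1% and 15.7%). The rises with the lowest adjusted p were those of *Cd82*, a tetraspanin (1.06, SE 0.10, adjusted p = 1.1e-04), *Triap1*, an inhibitor of apoptosis (1.01, SE 0.10, adjusted p = 1.2e-04), and *Gadd45a*, a growth arrest and damage gene (1.49, SE 0.18, adjusted p = 3.4e-04). The corresponding falls were those of *Fdxr*, a mitochondrial reductase (-0.81, SE 0.10, adjusted p = 2.8e-04), *Bid*, which links death receptors to mitochondria (-0.67, SE 0.08, adjusted p = 3.4e-04), and *Ninj1*, which ruptures the membranes of dying cells (-1.40, SE 0.21, adjusted p = 9.3e-04). The p53 relatives *Trp63* and *Trp73* were below the filter, at averages of 0.0177 and 0.0356 CPM in control total RNA.

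Upstream of p53, equal numbers rose and fell in total RNA, 7 each of 21 tested (33.3%, near the 26.3% and 28% of all genes, with a median of 0.12), while in RPF 6 fell (28.6%, against 15.7% of all genes) and only *Hipk2*, a kinase of p53, rose (0.77), 4.76% against 14.1%. The damage kinases were among those that fell. *Atr* (-0.53, SE 0.06, adjusted p = 2.4e-04), *Prkdc* (-0.73, SE 0.12, adjusted p = 0.0015) and *Atm* (-0.38, SE 0.06, adjusted p = 0.0016) had the lowest adjusted p in that direction. The largest rise was that of *Hipk2* (1.14, SE 0.28, adjusted p = 0.009). The rises with the lowest adjusted p were those of the methyltransferase *Kmt5a* (0.71, SE 0.05, adjusted p = 3.1e-05), the deacetylase *Sirt1* (0.74, SE 0.08, adjusted p = 2.4e-04) and the acetyltransferase *Kat5* (0.51, SE 0.07, adjusted p = 6.1e-04). Their RPFs did not pass the threshold (-0.14, 0.24 and 0.04), and TE was lowered for all 3 (-0.85, -0.50 and -0.47) and for *Trp53bp1* (-0.90) and *Rchy1* (-0.42), 5 of the 21 (23.8%, against 6.57% of all genes).

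Ribosomal proteins that bind and inhibit Mdm2 when ribosome assembly fails fell in total RNA and did not pass the threshold in RPF. All 7 (*Rpl5*, *Rpl11*, *Rpl23*, *Rpl26*, *Rps3*, *Rps7*, *Rps14*) fell in total RNA, with log2 fold changes from -0.88 to -0.53 (median -0.71), where 28% of all genes fell. The lowest adjusted p belonged to *Rpl23* (-0.88, SE 0.05, adjusted p = 1.5e-05), *Rpl26* (-0.71, SE 0.07, adjusted p = 9.9e-05) and *Rps7* (-0.74, SE 0.07, adjusted p = 1.2e-04). In RPF the 7 ranged from -0.15 to 0.50 with adjusted p from 0.32 to 0.94, and TE was raised for all but *Rps7* (median 0.76), and for 3.24% of all genes. Ribosomal protein genes have many processed copies, and only reads that align once were counted.

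Of 22 cell cycle genes that p21 represses through the DREAM complex, 5 rose in total RNA and the other 17 did not pass (median 0.20). The 5 are 22.7% of the list, below the 26.3% of all genes that rose. *Foxm1*, a transcription factor of mitotic genes (0.65, SE 0.12, adjusted p = 0.0021), the proliferation marker *Mki67* (0.64, SE 0.15, adjusted p = 0.0077) and *Ccna2*, the cyclin of S phase (0.53, SE 0.14, adjusted p = 0.013), had the lowest adjusted p. In RPF *Cdk1* (0.43) and *Bub1b* (0.27) rose and the replication helicase subunits *Mcm5* (-0.30) and *Mcm6* (-0.45) fell, 9.09% in each direction against 14.1% and 15.7% of all genes, with 18 that did not pass.

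**Figure D3:**
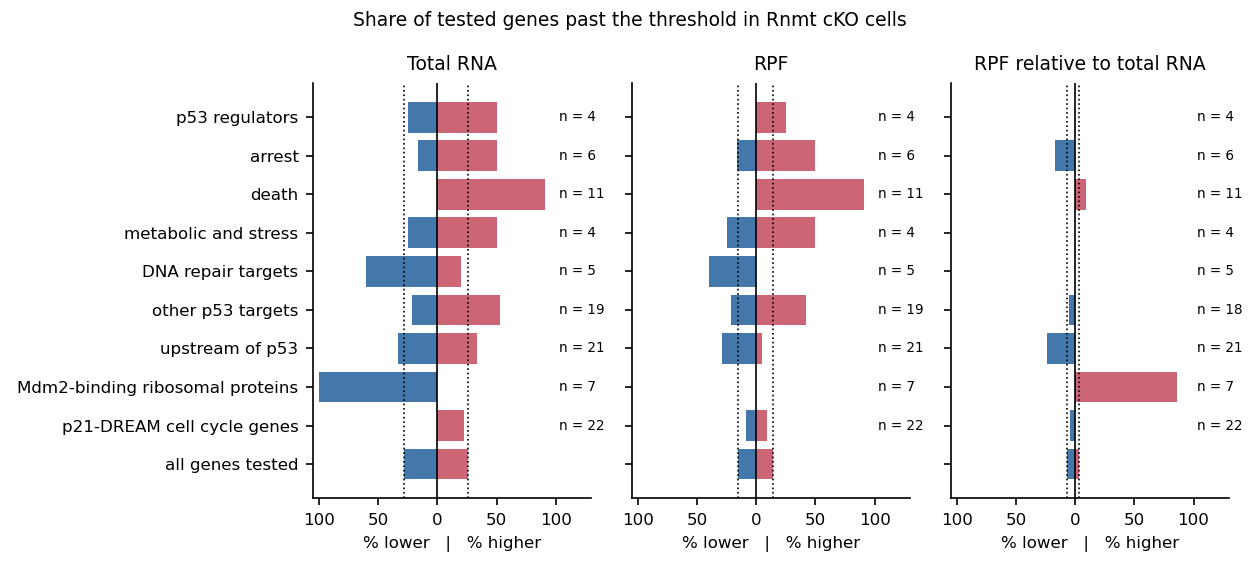
Percent of tested genes higher (red) or lower (blue) in *Rnmt* cKO cells at an adjusted p under 0.05 (x axis), by list (y axis, n genes tested), in total RNA, RPF and TE; dotted lines mark the shares over all genes tested. Death genes reach 90.9% higher in both total RNA and RPF, repair targets 60% lower in total RNA, and the Mdm2-binding ribosomal proteins 100% lower in total RNA and 85.7% raised in TE.

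Markers of other cells differed between samples in a way that partly followed genotype. The 5 B cell markers (*Cd79a*, *Cd79b*, *Ms4a1*, *Pax5*, *Blnk*) had the sums in total RNA given above. In RPF they summed to 9.58, 8.14 and 30.9 CPM in control and to 103, 122 and 18 CPM in *Rnmt* cKO cells. *Rnmt* cKO replicate 3 was thus below control replicate 3 in both, but above control replicates 1 and 2. The most abundant of the markers, *Ms4a1*, was at 33.7, 41.1 and 7.6 CPM in *Rnmt* cKO total RNA, and no marker was at 0 in all libraries. Of the 4 tested in total RNA 3 rose, *Cd79b*, *Ms4a1* and *Blnk*. The genotypes overlapped for *Ms4a1* and *Blnk* and did not for *Cd79b*. The 9 T cell markers summed to 3828, 3706 and 3487 CPM in control and to 2573, 2566 and 2941 CPM in *Rnmt* cKO total RNA. The receptor subunits *Cd3g* (-1.23) and *Cd3d* (-0.74), the kinases *Lck* (-0.90) and *Zap70* (-0.89) and the inhibitory receptor *Cd5* (-0.65) fell, whereas *Cd3e* (0.10), *Cd4* (-0.16), *Cd28* (-0.01) and *Thy1* (-0.21) did not pass. In RPF the same 5 and *Thy1* (-0.63, SE 0.10, adjusted p = 0.0027) fell, 6 of the 9. Over all genes tested, 26.3% rose and 28% fell in total RNA, and 15.7% fell in RPF.

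The 2 CD8 T cell markers summed to 21.4, 21.4 and 41.7 CPM in control and to 26.4, 21.3 and 9.85 CPM in *Rnmt* cKO total RNA, which overlap. Markers of NK cells and of myeloid cells were near 0 but higher in all 3 *Rnmt* cKO samples, replicate 3 included. The 4 NK cell markers summed to 0.318, 0.265 and 0.27 CPM in control and to 1.83, 1.6 and 1.12 CPM in *Rnmt* cKO total RNA, and the 6 myeloid markers to 0.106, 0.371 and 0.216 CPM and to 1.02, 0.464 and 0.475 CPM. All NK cell and myeloid markers were below the filter in total RNA and were not tested there. In RPF the myeloid marker *Fcer1g* passed the filter only through the *Rnmt* cKO libraries, at 1.29, 2.44 and 1.23 CPM, with 2 reads in all over the 3 control libraries. Of the 2 regulatory T cell markers, *Ikzf2* rose in total RNA (1.12, SE 0.11, adjusted p = 1.3e-04) and in RPF (1.34, SE 0.44, adjusted p = 0.05 after rounding), and *Foxp3*, which defines these cells, was at 0.902, 0.794 and 0.701 CPM in control and at 0.882, 0.361 and 0.389 CPM in *Rnmt* cKO total RNA, below the filter. In RPF *Foxp3* did not pass (-0.19, SE 0.23, adjusted p = 0.56).

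*Rnmt* cKO replicate 3 had the lowest B cell marker sums of the *Rnmt* cKO samples, though above those of control replicates 1 and 2. In that sample the median log2 (CPM + 0.5) of the 12 death genes was 6.04 in total RNA. The median was 5.99 and 6.04 in *Rnmt* cKO replicates 1 and 2, and 5.16, 5.32 and 5.2 in the controls. *Cdkn1a* was at 41.8 CPM in total RNA of replicate 3 against 65.1 and 66.4 CPM in the others, and at 206 CPM against 200 and 203 CPM in RPF. When replicate 3 alone was compared with the 3 controls, an alternative chosen after seeing the data in which the lone sample is assumed to vary like the controls, 19 members rose and 4 fell in total RNA, and 12 rose and 1 fell in RPF. In that comparison 19.7% of 11119 genes rose and 20.8% fell in total RNA, and 4.36% of 10951 rose and 4.75% fell in RPF. The part of other cell types in the change of single members was not tested.

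**Figure D4:**
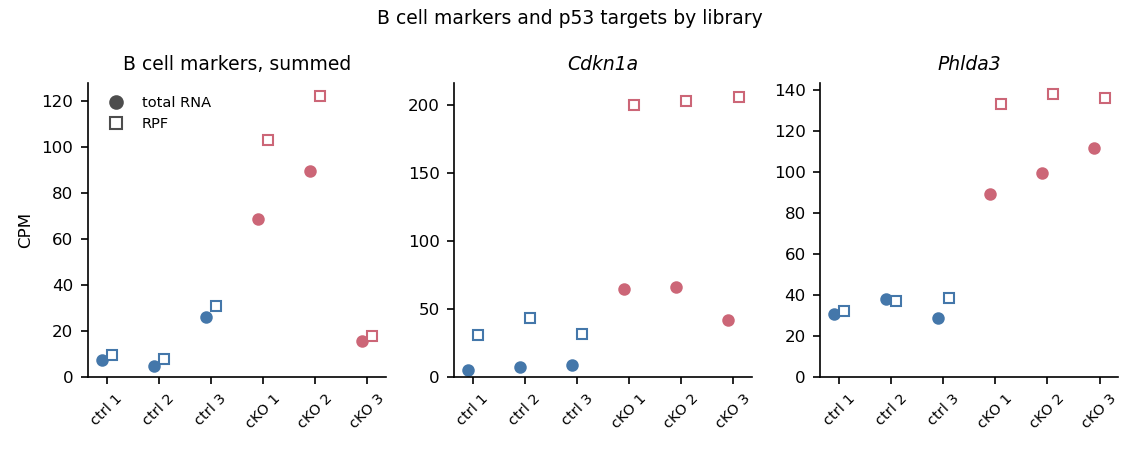
CPM (y axes, linear, from 0) of the 5 B cell markers summed, of *Cdkn1a* and of *Phlda3* in each sample; filled circles are total RNA, open squares are RPF, blue is control and red is *Rnmt* cKO. The marker sum is 68.6 and 89.7 CPM in total RNA of *Rnmt* cKO replicates 1 and 2 and 15.7 CPM in replicate 3; *Cdkn1a* is at 65.1, 66.4 and 41.8 CPM and *Phlda3* at 89.1, 99.7 and 112 CPM in the same 3.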

How the data were processed

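The authors took read 2, removed adapters with Cutadapt and reads of rRNA and tRNA with Bowtie, aligned the rest to mm10 (GENCODE vM12) with STAR 2.5.2b and deposited, for each of the 12 libraries, whole-number counts per gene of reads that aligned once, not normalized. They also deposited a table of normalized signal values, fold changes and p-values from their own comparisons. Its signal columns served only to identify the strand, because they equal the reverse-strand counts up to 1 factor per library, and its comparison columns were not used.

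Counts of the reverse strand were analysed here in edgeR 4.0.16 (R 4.3.3) by its quasi-likelihood F test after TMM scaling, with Benjamini-Hochberg adjustment over all genes above 1 CPM in at least 3 of 6 libraries and a threshold of 0.05. TE was tested as an interaction term of genotype with library kind, fitted to the 12 libraries together. Symbols came from the authors' table for 30 members and otherwise, like all positions, from GENCODE vM21 (GRCm38). RPKM used the union of exons, and promoter windows came from RefSeq. Log2 fold changes had a median standard error of 0.101 (total RNA), 0.124 (RPF) and 0.16 (TE), which covers counting and the spread between libraries. Deviations from the group mean correlated weakly between the total RNA and RPF library of the same genotype and number (r from 0.12 to 0.41). These libraries were taken as pairs, but libraries of different numbers were not compared, so the pairing is an assumption. Control and *Rnmt* cKO samples of the same number did not all deviate together (r from -0.57 to 0.48) and were not taken as pairs. No 2 libraries of a group agreed within sampling noise. The fits were tested on simulated counts, but no result of that test is given here, and no statement above rests on it.

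The members, their groups and the other lists were chosen with earlier results of these data known, and 1 listed marker is not reported here. The genes named are all members, *Rnmt*, the markers and, from each other list, up to 3 genes in each direction with the lowest adjusted p in total RNA; genes named for their RPF or TE call were chosen after their values were seen. Other settings tried were DESeq2 1.42.0, scaling by library size alone, edgeR's exact test, no filter, at least 10 counts in every library, both strands, a replicate block and each replicate left out. Figures used matplotlib 3.10.9, pandas 2.3.3 and numpy 2.4.6 in Python 3.11.15.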

Additional observations from a re-analysis of the deposited data

Results flagged for a closer look

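*Aen* and *Btg2* were singled out because their genotype effect differed between RPF and total RNA by the interaction test. *Aen* had a TE log2 fold change of 0.36, with higher RPF per total RNA in 3 of 3 *Rnmt* cKO samples, and *Btg2* one of -0.43, with lower RPF per total RNA in 3 of 3. Both are named in the report with their values in every sample, and neither held its call in all alternatives.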

How the results depend on the processing

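The numbers of members that rose or fell in total RNA stayed within 1.5 times the reported 18 and 6 under every alternative with replicates in both groups, with 17 to 19 and 4 to 6 when 1 sample was left out, and so did the 16 that rose in RPF (15 to 16). The number that fell in RPF was 4, and 2 to 3 when 1 sample was left out (2 without *Rnmt* cKO replicate 2). In TE, the count of raised members, 1, became 0 with library size without TMM, with no filter, with counts of both strands and with each sample left out (0 to 0). The count of lowered members in TE, 1, became 0 with no filter and 0 to 1 with a sample left out (0 without each control replicate), and 2 with the replicate block by culture. The replicate block across genotypes changed no count by over 1.5 times and ended the calls of *Ercc5* and *Ppm1d* in total RNA (-0.22 and 0.23). The numbers were not taken to pair the genotypes. Signs turned only for values that had not passed the threshold. In RPF these were *Trp53inp1* (0.01 without TMM, -0.05 to 0.03 with samples left out) and *Rrm2b* (-0.08 to 0.36). In TE they were *Fas* (-0.02 to 0.06), *Ccng2* (-0.04 to 0.10), *Polk* (-0.01 to 0.16), *Ei24* (-0.07 to 0.11), *Perp* (-1.10 to 0.34), *Zmat3* (-0.25 to 0.02), *Bax* (-0.01 to 0.12) and *Xpc* (-0.14 to 0.03) with samples left out, and *Zmat3* (0.13), *Tigar* (-0.03) and *Fas* (-0.05) with *Rnmt* cKO library 3 alone. The causes were not tested. The tested members with the fewest RPF reads were *Perp*, *Rrm2b* and *Pmaip1*, whose log2 fold changes had standard errors of 0.48, 0.29 and 0.20.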
